A study of Homo sapiens with 6 samples.

Results

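The 9 genes described here, HLA-B, HLA-C, HLA-E, HLA-F, HLA-G, B2M, TAP1, TAP2 and TAPBP, encode molecules that load peptides and show them at the cell surface as MHC class I. They were represented by every probe set that the platform annotation assigns to them, which gave 25 of the 22277 probe sets on the array. HLA-C and HLA-G had 4 probe sets each, HLA-B, HLA-E, HLA-F and TAP2 had 3 each, B2M and TAPBP had 2 each, and TAP1 had 1. Each of the 25 named only 1 gene.

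The cells were NCI-H929, an established human multiple myeloma line carrying the t(4;14) translocation. They received by electroporation either a non-targeting siRNA (scramble), an siRNA against RRM1 (siRRM1) or an siRNA against RRM2 (siRRM2), and total RNA was taken after 24 hours. RRM1 and RRM2 are the large and small subunits of ribonucleotide reductase, which supplies the deoxyribonucleotides used in DNA synthesis. Each of the 3 groups had 2 arrays, and all came from 1 cell line. Nothing in the labels ties the paired arrays to separate cultures; p-values therefore measure only array-to-array spread, which may be technical.

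MHC class I displays peptides from inside the cell to cytotoxic T cells and natural killer cells. A heavy chain, encoded by an HLA gene, pairs with beta-2 microglobulin. The TAP transporter moves peptides from the cytosol into the endoplasmic reticulum, where tapasin holds the empty heavy chain beside it until a peptide is bound. Interferons are known to raise transcription of most of these genes through short elements in their promoters, and loss of class I display is a recognised route by which tumours avoid T cells.

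Those promoter elements are shown first, because most members with a promoter window hold them and the rule that chose the genes did not use them. Their part in the expression results below was not tested. RefSeq promoter windows of 300 bases (250 before and 50 after the start, build GRCh38.p14) matched 8 of the 9 genes, with none for HLA-E. Both strands were searched for GAAANNGAAA and GAANNGAAA, spacings found in interferon response elements, and for the NF-kappaB consensus. One or both interferon spacings were present in 7 of the 8 genes (for TAP1, in 1 of its 2 windows), against 10.6% of all 35116 promoter windows. By spacing, GAAANNGAAA occurred in 3.57% and GAANNGAAA in 7.66% of all windows. The NF-kappaB consensus was present in 5 genes, HLA-B, HLA-C, B2M, TAP1 and TAPBP, against 5.91% of windows. Members were counted by gene over any of their windows and the background by single window, so these shares are not like for like. The stretches below run 5′ to 3′ on the gene's own strand, end before the start site, and carry the interferon-type letters in capitals, with overlapping matches run together.
HLA-B, chr6:31357296-31357364, minus strand: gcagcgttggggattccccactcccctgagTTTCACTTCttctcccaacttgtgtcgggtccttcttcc
HLA-C, chr6:31272208-31272276, minus strand: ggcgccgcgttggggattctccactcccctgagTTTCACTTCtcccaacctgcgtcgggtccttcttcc
HLA-F, chr6:29723248-29723316, plus strand: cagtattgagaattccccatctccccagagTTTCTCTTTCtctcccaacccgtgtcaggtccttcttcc
HLA-G, chr6:29827640-29827708, plus strand: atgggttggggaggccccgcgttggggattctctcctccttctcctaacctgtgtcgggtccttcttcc
B2M, chr15:44711338-44711423, plus strand: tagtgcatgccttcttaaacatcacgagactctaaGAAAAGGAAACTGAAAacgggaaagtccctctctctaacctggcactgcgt
TAP1, chr6:32853788-32853873, minus strand: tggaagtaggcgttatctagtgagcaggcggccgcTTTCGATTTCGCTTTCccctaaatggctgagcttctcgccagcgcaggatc
TAP2, chr6:32838753-32838837, minus strand: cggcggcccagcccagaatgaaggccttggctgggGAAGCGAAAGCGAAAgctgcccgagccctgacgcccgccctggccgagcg
TAPBP, chr6:33314079-33314133, minus strand: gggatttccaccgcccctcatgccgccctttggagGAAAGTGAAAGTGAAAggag
HLA-B and HLA-C carried GAANNGAAA, and HLA-F carried GAAANNGAAA, at nearly the same distance from the start. The flanks of HLA-B and HLA-C are almost alike, and those of HLA-F resemble them with more differing bases. Matches in these related genes are therefore not separate observations. HLA-G, printed over the same stretch, held neither spacing in any of its 3 windows. A match describes these letters and is not evidence of binding.

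The deposited values are log2 signals, and array medians lay between 6.11 and 6.16. The siRNA targets were checked first. On their 2 probe sets each, RRM1 differed from scramble by -2.60 and -2.63 on the log2 scale in siRRM1 (limma adjusted p = 0.00527 and 0.00289) and RRM2 by -1.79 and -2.70 in siRRM2 (limma adjusted p = 0.0361 and 0.00219). Plasma cell markers matched the labelled cell type, with 8 of 8 above the low-signal floor of 5.44, as were both t(4;14) genes, FGFR3 and NSD2. Of the markers of other cells, 1 of 5 T cell genes, 1 of 3 myeloid genes and 2 of 5 epithelial or stromal genes were above it. The summed linear signal of the 8 plasma cell markers was 32180 and 30890 in scramble, 27010 and 25960 in siRRM1, and 32530 and 30200 in siRRM2. Limma called 0 of them in either knockdown. In siRRM1 all 8 lay below scramble without overlap, where 31.4% of all tested probe sets did, and 4 had an unadjusted limma p under 0.05. In siRRM2 only CD38 had such a p, higher by 0.29 on the log2 scale. FGFR3 was lower by 0.54 on the log2 scale in siRRM1 (difference -0.54, limma adjusted p = 0.0248). The part of the plasma cell markers or of FGFR3 in the results below was not tested.

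In the knockdown of RRM1, the class I genes called higher were TAP1 by 1.59-fold, HLA-B by 1.33-fold and HLA-E by 1.31-fold. HLA-B and HLA-E were each called on 1 of their 3 probe sets. With only scramble and siRRM1 fitted, the TAP1 call held and the HLA-B and HLA-E calls were lost. In the knockdown of RRM2, only HLA-E passed the test, at 1.57-fold on the same HLA-E probe set. No member fell in either comparison. Heavy-chain group means lay above scramble on every one of the 16 tested HLA probe sets in both knockdowns, mostly by small amounts. In siRRM1 the arrays themselves overlapped scramble on some of them, leaving 13 of 16 without overlap. TAP2, the partner of TAP1 in the transporter, did not follow it on its 2 tested probe sets.

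These calls come from limma fitted to 13308 probe sets whose mean reached the 40th percentile of the array, with Benjamini-Hochberg adjustment over all of them and a threshold of 0.05. Of the 25 members, 23 were tested, and 1 HLA-F and 1 TAP2 probe set lay below the floor. In siRRM1, 3 of 23 were called higher, where 6.42% of all tested probe sets were called higher and 5.75% lower (854 and 765 probe sets, or 747 and 1073 with each array centred on its own median). In siRRM2, 1 of 23 was called higher, where 1.12% of all were called higher and 0.203% lower. With so few members, 1 probe set more or less called would move these shares by several percentage points. The sign was more uniform than the calls. Differences from scramble were above 0 for 21 of 23 members in siRRM1 and 22 of 23 in siRRM2, against 46.1% and 47.5% of all tested probe sets. The median member difference was 0.20 in siRRM1, where the median of all tested probe sets was -0.02, and 0.27 in siRRM2, where it was -0.01. At an unadjusted p under 0.05, 9 members were higher in siRRM1 and 13 in siRRM2, where 13.6% and 10.1% of all tested probe sets were. Both comparisons share the same 2 scramble arrays. Probe sets of 1 gene measure the same transcripts and the x_at probe sets described below may share targets, so the signs are not separate observations.

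**Figure D1:**
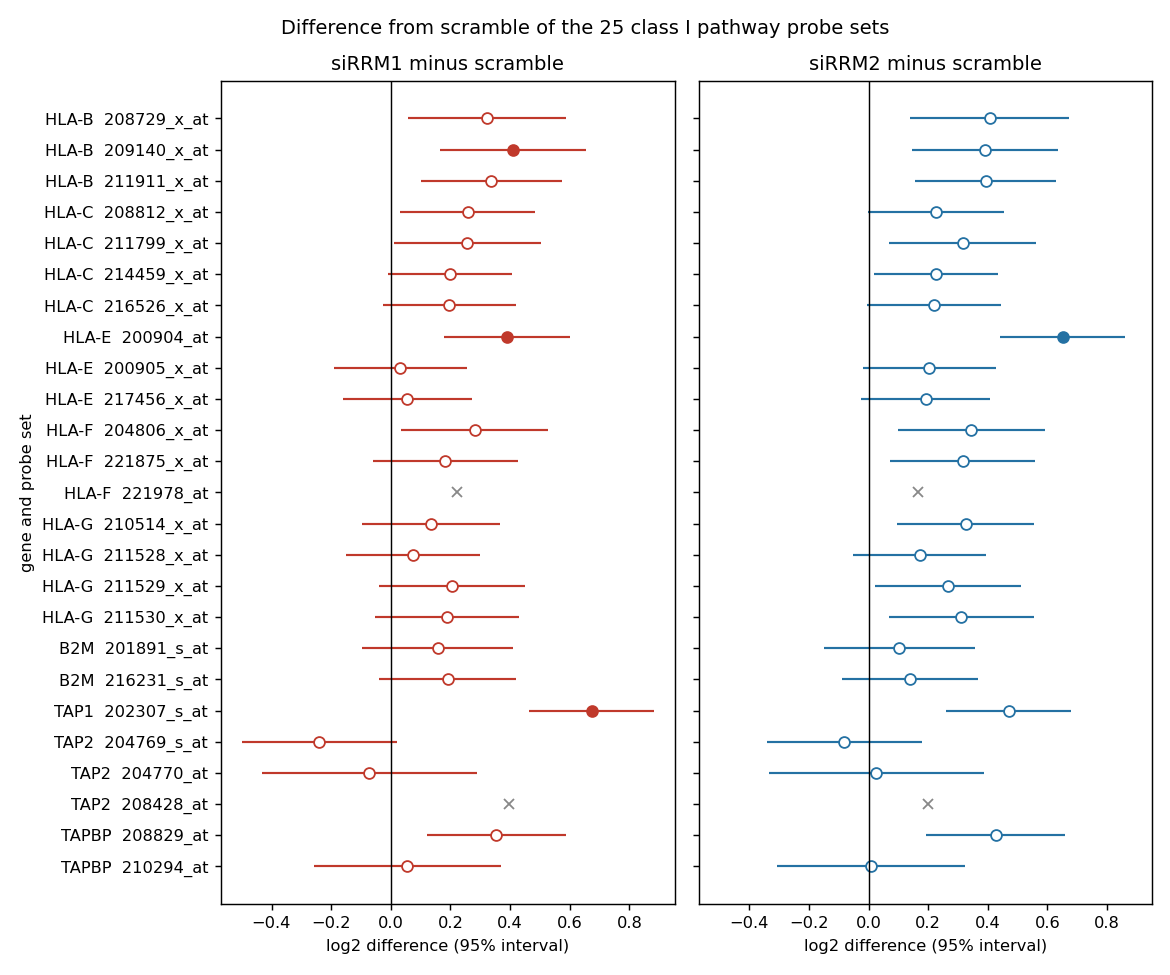
Log2 difference from scramble (x axis) of each of the 25 class I pathway probe sets (y axis), for siRRM1 on the left and siRRM2 on the right, with 95% intervals from limma. Filled points passed an adjusted p of 0.05 and crosses mark the 2 probe sets below the low-signal floor; most points lie right of 0 while few are filled.

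HLA-E, a nonclassical heavy chain that presents signal peptides of other class I molecules to the NKG2A receptor, gave the largest difference of any heavy chain in siRRM2, on 1 of its probe sets. On 200904_at, the scramble arrays read 7.35 and 7.26, the siRRM1 arrays 7.68 and 7.70, and the siRRM2 arrays 7.97 and 7.94. The groups did not overlap, and the siRRM2 arrays were the highest. The difference was 0.39 in siRRM1 (SE 0.09, 95% interval 0.18 to 0.60, n = 2 against 2, limma adjusted p = 0.0345). In siRRM2 it was 0.65 (SE 0.09, 95% interval 0.44 to 0.86, limma adjusted p = 0.0345). The call in siRRM1 was lost when any of the 6 arrays was left out (adjusted p 0.0561 to 0.130) and when only scramble and siRRM1 were fitted (0.0760). The call in siRRM2 was lost without scramble replicate 1 (0.103), scramble replicate 2 (0.109), siRRM2 replicate 1 (0.183) or siRRM2 replicate 2 (0.188).

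The other HLA-E probe sets gave smaller differences. On 200905_x_at the arrays read 11.82 and 11.90 in scramble, 11.96 and 11.82 in siRRM1, and 12.06 and 12.06 in siRRM2. Scramble and siRRM1 overlapped there, with a difference of 0.03 (limma adjusted p = 0.861), and the difference in siRRM2 was 0.20 (adjusted p = 0.305). On 217456_x_at the differences were 0.06 and 0.19 (limma adjusted p = 0.734 and 0.319). The suffix x_at is the manufacturer's mark for probe sets with probes that may also match other sequences, and 15 of the 16 tested HLA probe sets carry it, 200904_at being the exception. Signals of the 15 may therefore mix transcripts of several heavy-chain genes, and how much each gene contributed was not tested.

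HLA-B, a classical heavy chain that presents peptides to CD8 T cells, was called on 209140_x_at in siRRM1. Its scramble arrays read 11.55 and 11.76, the siRRM1 arrays 12.03 and 12.11, and the siRRM2 arrays 12.07 and 12.03. Both knockdown groups lay above both scramble arrays. The difference was 0.41 in siRRM1 (SE 0.10, limma adjusted p = 0.0463) and 0.39 in siRRM2 (limma adjusted p = 0.117). The call was lost when any of the 6 arrays was left out (adjusted p 0.0605 to 0.219), with no floor (0.0612), with arrays centred (0.0584) and with only scramble and siRRM1 fitted (0.0902), while with a variance trend it was called in siRRM2 too (0.0390).

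The other HLA-B probe sets read alike. On 208729_x_at scramble gave 10.30 and 10.56, siRRM1 gave 10.79 and 10.71, and siRRM2 gave 10.88 and 10.79. On 211911_x_at scramble gave 10.90 and 11.08, siRRM1 gave 11.33 and 11.32, and siRRM2 gave 11.42 and 11.34. No knockdown array overlapped scramble on either. Differences on these 2 probe sets were 0.32 and 0.34 in siRRM1 and 0.41 and 0.39 in siRRM2, and none passed the test. With a variance trend, 211911_x_at was called in both knockdowns (limma adjusted p = 0.0271 and 0.0422).

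HLA-C, the classical heavy chain that is also the main ligand of killer-cell immunoglobulin-like receptors, did not pass the test on any of its 4 probe sets. On 208812_x_at the scramble arrays read 11.55 and 11.66, the siRRM1 arrays 11.80 and 11.92, and the siRRM2 arrays 11.86 and 11.81. Both knockdowns lay above scramble without overlap, and with a variance trend this probe set was called in siRRM1 (limma adjusted p = 0.0435). Over the 4 probe sets the difference ran from 0.20 to 0.26 in siRRM1 (limma adjusted p 0.127 to 0.214) and from 0.22 to 0.32 in siRRM2 (limma adjusted p 0.178 to 0.274).

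HLA-F and HLA-G are nonclassical heavy chains, HLA-G being known mainly from the placenta. The tested HLA-F probe sets differed from scramble by 0.28 and 0.18 in siRRM1 (limma adjusted p = 0.125 and 0.282) and by 0.34 and 0.32 in siRRM2 (0.154 and 0.173). The HLA-F probe set 221978_at lay under the floor, at 4.85 and 4.98 in scramble, 5.10 and 5.18 in siRRM1 and 5.12 and 5.03 in siRRM2, and was not tested. The 4 HLA-G probe sets differed by 0.07 to 0.20 in siRRM1 (limma adjusted p 0.236 to 0.645) and by 0.17 to 0.33 in siRRM2 (0.151 to 0.381). HLA-G gave the narrowest gap on 211528_x_at, which read 10.64 and 10.79 in scramble, 10.76 and 10.82 in siRRM1 and 10.88 and 10.89 in siRRM2, so that scramble and siRRM1 overlapped.

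Over the heavy chains, siRRM1 lay above scramble without overlap on 13 of 16 tested probe sets, where 26% of all tested probe sets did so. In siRRM2 it was 16 of 16, where 25.8% of all did. The heavy-chain median difference was 0.20 in siRRM1 (range 0.03 to 0.41) and 0.31 in siRRM2 (range 0.17 to 0.65). Across the 6 arrays the 16 probe sets moved together, with a median pairwise r of 0.888 over 120 pairs (range 0.378 to 0.999), a description of probe sets that share arrays and may share targets.

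The scramble arrays were themselves unequal for these genes. Replicate 2 read above replicate 1 on 15 of 16 HLA probe sets, by a median of 0.14, while 48.7% of all tested probe sets did so and the median over all was -0.01. The siRRM1 replicates differed less, with replicate 2 higher on 10 of 16 and a median gap of 0.03. In siRRM2, replicate 2 was higher on 2 of 16, with a median gap of -0.07. The scramble gap is about as wide as several of the heavy-chain differences, and its part in them was not tested.

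**Figure D2:**
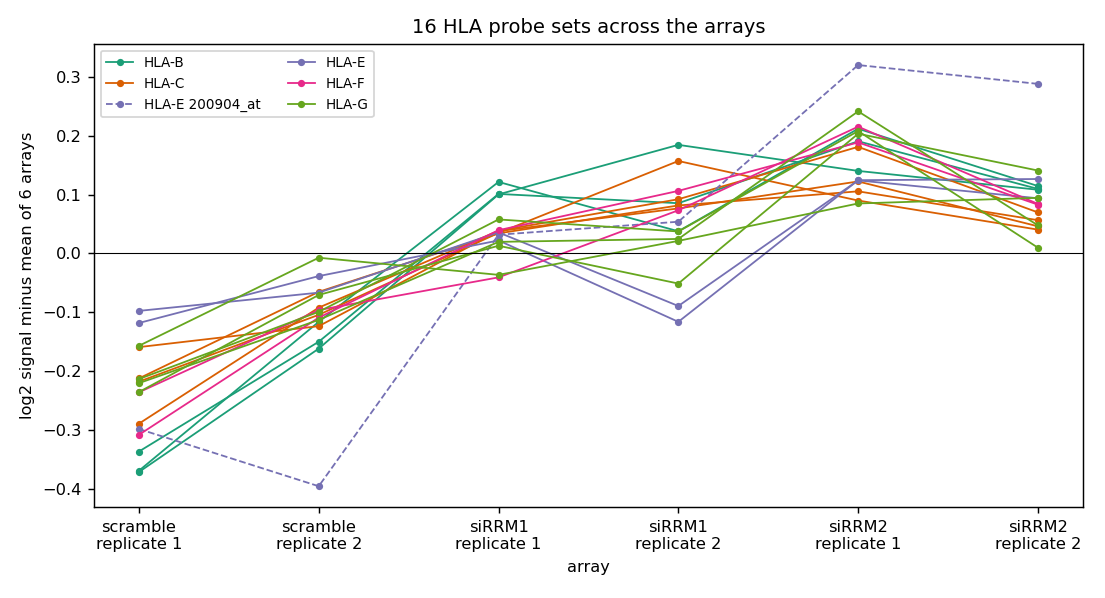
Log2 signal minus the mean of the 6 arrays (y axis) for the 16 tested HLA probe sets on each array (x axis), one line per probe set coloured by gene, with HLA-E 200904_at dashed. Scramble lies lowest for most lines, scramble replicate 1 lies below replicate 2 for 15 of 16, and the dashed line differs in having scramble replicate 2 lowest.

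B2M, the light chain that every class I heavy chain needs, did not pass the test. On 201891_s_at scramble read 13.51 and 13.30, siRRM1 read 13.52 and 13.61, and siRRM2 read 13.56 and 13.46. On 216231_s_at scramble read 13.50 and 13.41, siRRM1 read 13.70 and 13.59, and siRRM2 read 13.65 and 13.54. The scramble replicates of 201891_s_at lay 0.21 apart, which is wider than either of its differences. The differences were 0.16 and 0.19 in siRRM1 (limma adjusted p = 0.370 and 0.236) and 0.10 and 0.14 in siRRM2 (limma adjusted p = 0.656 and 0.492).

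TAP1, which forms one side of the peptide transporter, gave the largest difference of any tested member in siRRM1. The scramble arrays read 8.43 and 8.43, the siRRM1 arrays 9.07 and 9.13, and the siRRM2 arrays 8.86 and 8.94. All 4 knockdown arrays lay above scramble, and the siRRM1 pair lay above the siRRM2 pair. The difference in siRRM1 was 0.67 (SE 0.09, 95% interval 0.46 to 0.88, limma adjusted p = 0.00688), and it passed under all 14 alternative settings tried (adjusted p 0.00265 to 0.0423). In siRRM2 the difference was 0.47, or 1.38-fold (SE 0.09, 95% interval 0.26 to 0.68, limma adjusted p = 0.0588). It passed in siRRM2 with a floor at the 60th percentile (0.0438), with 1 probe set per gene (0.0383), with a variance trend (0.0421) and with the replicate number as a block (0.0277).

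TAP2, the other side of the transporter, was not called in either knockdown. On 204769_s_at scramble read 7.92 and 8.06, siRRM1 read 7.83 and 7.68, and siRRM2 read 7.82 and 8.00. The siRRM1 arrays lay below both scramble arrays, the only tested member that did so without overlap (31.4% of all tested probe sets did), with a difference of -0.24 (SE 0.11, limma adjusted p = 0.196). In siRRM2 the groups overlapped, with a difference of -0.08 (limma adjusted p = 0.743), and 0 members lay wholly below scramble, where 29% of all tested probe sets did. On 204770_at the differences were -0.07 and 0.03 (limma adjusted p = 0.799 and 0.949), and the sign in siRRM2 turned to -0.01 with arrays centred on their medians. The probe set under the floor, 208428_at, read 4.36 and 4.53 in scramble, 4.95 and 4.74 in siRRM1, and 4.82 and 4.47 in siRRM2. Its siRRM1 arrays lay above both scramble arrays (difference 0.40), its siRRM2 arrays overlapped them (0.20), and it was not tested.

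TAPBP encodes tapasin, the bridge between TAP and the empty heavy chain. On 208829_at scramble read 8.27 and 8.41, siRRM1 read 8.63 and 8.76, and siRRM2 read 8.77 and 8.77. The knockdown arrays did not overlap scramble. The difference was 0.35, or 1.28-fold, in siRRM1 (SE 0.10, 95% interval 0.12 to 0.59, limma adjusted p = 0.0597) and 0.43, or 1.34-fold, in siRRM2 (SE 0.10, limma adjusted p = 0.0895). In siRRM1 it passed with a floor at the 60th percentile (0.0423), with 1 probe set per gene (0.0457) and with the replicate block (0.0325), and in siRRM2 with the replicate block (0.0408). The second probe set, 210294_at, read 5.61 and 5.59 in scramble, 5.63 and 5.68 in siRRM1, and 5.80 and 5.41 in siRRM2, with differences of 0.06 and 0.01 (limma adjusted p = 0.824 and 0.982).

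**Figure D3:**
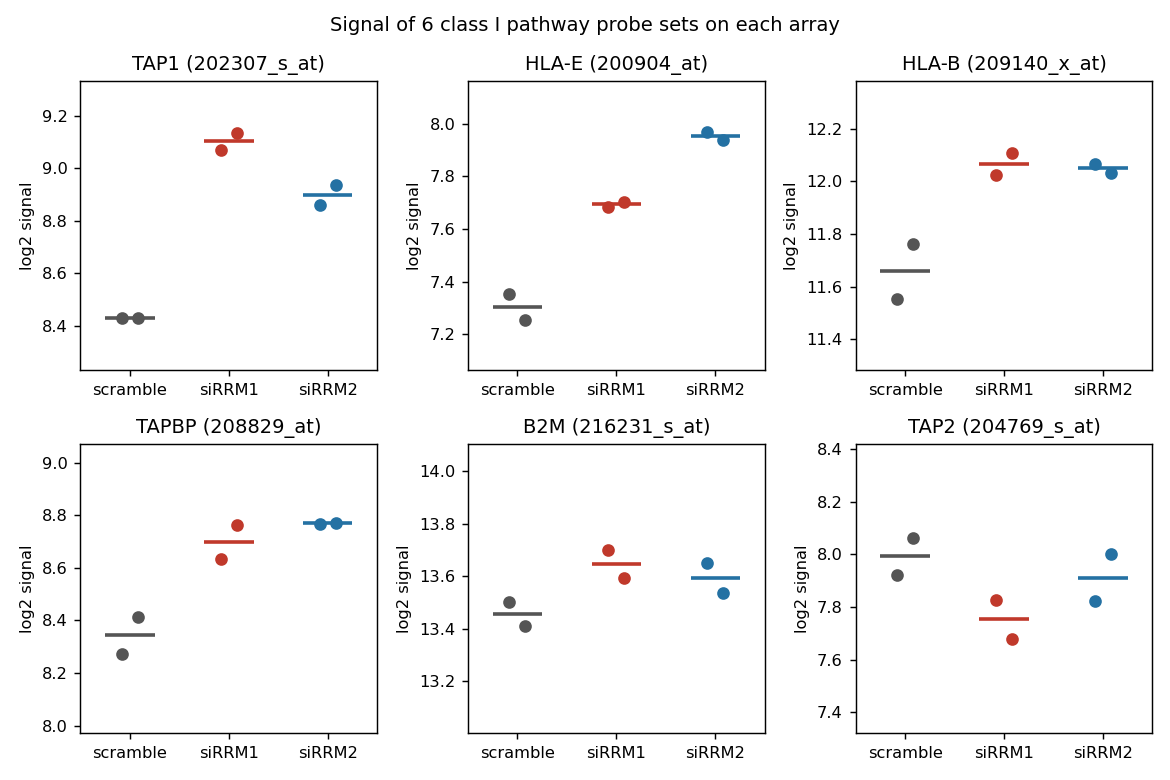
Log2 signal (y axis, with its own range in each panel) on the 2 arrays of each group (x axis) for 6 class I pathway probe sets, with points for arrays and lines for group means. Each is the tested probe set of its gene with the largest absolute siRRM1 difference, so separation is partly built in. HLA-C, HLA-F and HLA-G are not shown. On the probe sets shown, TAP1 202307_s_at, HLA-E 200904_at, HLA-B 209140_x_at, TAPBP 208829_at and B2M 216231_s_at have all knockdown arrays above both scramble arrays, and TAP2 204769_s_at has both siRRM1 arrays below them; other probe sets of HLA-E, B2M and TAPBP overlap.

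Between the knockdowns, limma called 0 of 23 members, where 0.0225% of all tested probe sets were called higher in siRRM1 and 0.015% lower. At an unadjusted p under 0.05, 1 member was lower and 0 were higher in siRRM1, where 4.33% and 4.31% of all were. That member was HLA-E on 200904_at, lower in siRRM1 than in siRRM2 by 0.26 (SE 0.09, difference -0.26, 95% interval -0.47 to -0.05, limma unadjusted p = 0.0215 and adjusted p = 0.482). For TAP1 the difference was 0.20 towards siRRM1 (SE 0.09, 95% interval -0.01 to 0.41, limma adjusted p = 0.591). TAP1 was thus the higher in siRRM1 and HLA-E the higher in siRRM2, with neither difference called. Over all members the median difference was -0.06, where the median of all tested probe sets was -0.01, and 6 of 23 were above 0. The arrays did not overlap for 1 member higher in siRRM1 and for 9 lower, where 17.3% and 21.2% of all tested probe sets did so.

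Genes that act before, beside or after these members were taken as 7 lists with 1 probe set per gene, and 51 were tested. Of these, 4 were called higher and 2 lower in siRRM1, and 1 was called higher in siRRM2. Over all tested probe sets the shares were 6.42% and 5.75% in siRRM1 and 1.12% higher in siRRM2, close to those of the lists, so the calls below describe single genes. The list of the immunoproteasome, whose inducible subunits cut proteins into peptides suited to class I, and of the proteasome activator had 5 tested genes, 3 subunits and 2 activator genes, and limma called 0 in either knockdown (2 and 0 at an unadjusted p under 0.05). The medians over the 5 genes were -0.13 in siRRM1 and -0.02 in siRRM2, and the activator genes PSME1 and PSME3 gave -0.13 and -0.25 in siRRM1. PSMB9, an inducible catalytic subunit, read 9.17 and 9.40 in scramble, 9.54 and 9.65 in siRRM1, and 9.38 and 9.53 in siRRM2. Its differences were 0.31 and 0.17 (limma adjusted p = 0.119 and 0.468). PSMB8, another inducible subunit, differed by 0.21 and 0.10 (limma adjusted p = 0.409 and 0.777). PSMB10, the remaining inducible subunit, differed by -0.30 and -0.02 (limma adjusted p = 0.117 and 0.936), so the sign was not the same for all 3 subunits, none of which was called.

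Peptide trimming had 8 tested genes, of which 1 fell in siRRM1 and 0 were called in siRRM2 by limma (1 at an unadjusted p under 0.05). The gene was BLMH, bleomycin hydrolase, a cytosolic aminopeptidase, at -0.57 in siRRM1 (SE 0.11, limma adjusted p = 0.0227) and -0.43 in siRRM2 (limma adjusted p = 0.117). Among 7 loading partners, PDIA3 fell in siRRM1, at -0.38 (SE 0.09, limma adjusted p = 0.0382), and 0 were called in siRRM2 (2 at an unadjusted p under 0.05). PDIA3 encodes ERp57, the disulfide isomerase joined to tapasin in the loading complex. TAPBPL, a tapasin relative that edits peptides, differed by 0.34 and 0.37 (limma adjusted p = 0.0531 and 0.101). Leaving out single arrays moved the adjusted p of BLMH in siRRM1 between 0.0184 and 0.0972 and that of PDIA3 between 0.0414 and 0.148. The call was lost for BLMH without scramble replicate 1, scramble replicate 2 or siRRM1 replicate 2, and for PDIA3 without any array but siRRM1 replicate 1. PDIA3 also lost it with no floor (0.0543) and with only scramble and siRRM1 fitted (0.0821).

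The transcription factors that act at class I promoters had 11 tested genes, and limma called 0 in either knockdown (4 and 1 at an unadjusted p under 0.05). Those with the smallest p were RFXANK in siRRM1, a subunit of the RFX complex, at 0.32 (limma adjusted p = 0.0882), and NFYB in siRRM2, a subunit of NF-Y, at -0.36 (limma adjusted p = 0.239). Interferon sensing and signalling had 10 tested genes, with 2 called higher in siRRM1 and 0 in siRRM2 (5 at an unadjusted p under 0.05). IFNGR2, a chain of the interferon-gamma receptor, rose in siRRM1 by 0.41 (SE 0.10, limma adjusted p = 0.0365). TYK2, a kinase of the interferon receptor, rose by 0.39 (SE 0.10, limma adjusted p = 0.0445). IRF9, the DNA-binding subunit of the factor that type I interferon activates, read 7.72 and 8.14 in scramble, 8.33 and 8.29 in siRRM1, and 8.56 and 8.75 in siRRM2. IRF9 gave 0.38 in siRRM1 and 0.72 in siRRM2 (limma adjusted p = 0.142 and 0.0691). The call for IFNGR2 was lost when any of the 6 arrays was left out (adjusted p 0.0579 to 0.172), and that for TYK2 without any array but siRRM1 replicate 1 (0.0407 to 0.172). Both were also lost with arrays centred (0.050002 and 0.0568) and with only scramble and siRRM1 fitted (0.0672 and 0.0861), and TYK2 with no floor (0.0607).

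Class I-like molecules, which resemble heavy chains in structure but have other roles, had 6 tested genes: MICA, MICB, CD1A, CD1C, HFE and MR1. MR1, which shows vitamin B metabolites to mucosal-associated invariant T cells, rose in both knockdowns. It read 6.75 and 6.86 in scramble, 7.66 and 7.67 in siRRM1, and 7.38 and 7.38 in siRRM2, with no overlap. The differences were 0.86 (SE 0.09, limma adjusted p = 0.00301) and 0.58 (SE 0.09, limma adjusted p = 0.0395). In siRRM1 it passed without any single array (0.0107 to 0.0239), and in siRRM2 it was lost without each of the 6 (0.0509 to 0.221) and under quantile normalization (0.0503) or with only scramble and siRRM2 fitted (0.0509).

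CD1C, which presents lipids, read 5.82 and 5.78 in scramble, 6.87 and 7.95 in siRRM1, and 6.34 and 6.93 in siRRM2. The replicates of each knockdown lay far apart, although all were above scramble. CD1C rose by 1.61 in siRRM1 (SE 0.33, limma adjusted p = 0.0256), and by 1.07 without siRRM1 replicate 2 or 2.16 without siRRM1 replicate 1. The call was lost without scramble replicate 1, scramble replicate 2 or siRRM1 replicate 2 (adjusted p 0.00994 to 0.102 over the 6 arrays left out). In siRRM2 the difference was 0.84 (limma adjusted p = 0.240). CSF1R, the only myeloid marker above the floor, also rose in siRRM1, by 1.50 (limma adjusted p = 0.0219). The 3 myeloid markers summed to 75.3 and 85.9 linear signal units in scramble, 135 and 235 in siRRM1, and 95.5 and 117 in siRRM2. CD14 and LYZ lay below the floor and were not tested. CD14 differed from scramble by -0.002 in siRRM1 and -0.07 in siRRM2, and LYZ by 0.16 and -0.007. Most of the rise in the sum therefore came from CSF1R alone. In bulk RNA a change in the number of cells of a type and in RNA per cell cannot be told apart, and the part of the myeloid signal in these differences was not tested. Receptors for class I had 4 tested genes, and limma called 0 in either knockdown (0 and 0 at an unadjusted p under 0.05). KIR2DL1, an inhibitory receptor for HLA-C, gave 0.28 in siRRM1 (limma adjusted p = 0.180). CD8B, a chain of the CD8 coreceptor, gave -0.25 in siRRM2 (limma adjusted p = 0.281). The means over the 6 arrays, 5.48 for KIR2DL1 and 5.57 for CD8B, lay near the floor.

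**Figure D4:**
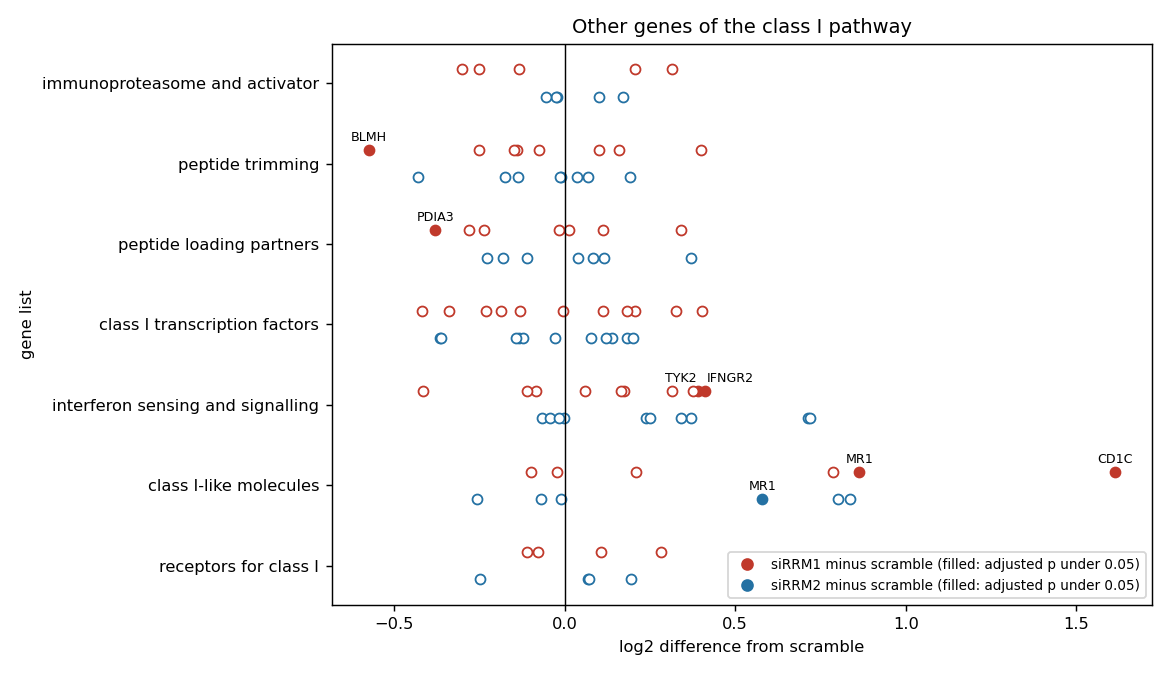
Log2 difference from scramble (x axis) of the tested genes of 7 lists related to class I (y axis), 1 point per gene, red for siRRM1 and blue for siRRM2, filled and named where limma's adjusted p was under 0.05. MR1 is filled in both knockdowns, CD1C lies farthest right in siRRM1, and BLMH and PDIA3 are the filled points left of 0.

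The mean of the 23 tested members, each centred on its own mean over the arrays, was -0.20 and -0.11 in scramble, 0.05 and 0.04 in siRRM1, and 0.15 and 0.07 in siRRM2. The genes whose profile over the 6 arrays was most like it were FLOT2, a lipid-raft protein, at r = 0.995, RTL8A at 0.991, APBA3 at 0.991, CES1, a carboxylesterase, at 0.989, and TNFRSF14, a receptor of the TNF family, at 0.988. They were chosen for this likeness, and 2.16% of 11771 probe sets naming 1 gene reached an r of 0.9 over the same 6 arrays. Among the members outside the heavy chains, the r with the heavy-chain mean was 0.962 for TAPBP on 208829_at and 0.219 on 210294_at, 0.775 for TAP1, 0.405 and 0.653 for B2M, and -0.395 for TAP2 on 204769_s_at and 0.174 on 204770_at. TAPBP 210294_at and TAP2 204770_at lay near the low-signal floor. All these r values describe 6 arrays in 3 groups and carry no test.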

How the data were processed

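Expression in 6 NCI-H929 samples (3 groups of 2) was measured on Affymetrix arrays. The authors deposited log2 signals per probe set, with their summarisation and normalization unstated in the labels and headers; with no counts, the number of arrays limits the precision. Groups came from the labels. Genes came from the platform annotation (19070 probe sets with 1 symbol, 1043 with several, 2164 with none). From the deposited log2 values, 62 control probe sets were left out, and 13308 with a mean at or above the 40th percentile (5.44) were fitted with limma 3.58.1 in R 4.3.3 (lmFit, eBayes, all 6 arrays, 3 residual and 4.29 prior degrees of freedom, two-sided), with Benjamini-Hochberg adjustment over all. The fit was tested on simulated data. Members and lists were chosen with earlier results of these data known. All members are named; in each list, up to 3 genes called in each direction, or the gene with the smallest p, and the 5 genes most like the mean profile. Alternatives changed the floor, probe sets per gene, scaling, variance trend, arrays fitted and replicate block, or left out each array.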

Additional observations from a re-analysis of the deposited data

How the results depend on the processing

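With 2 arrays a group, single arrays decide most calls. Of 918 member differences recomputed under 14 alternative settings, 858 kept their direction and side of the threshold. A further 20 lost the call, 12 gained it, and 28 changed sign, none of those called and none above 0.186 in size. Most of the 918 belong to differences not called in the fit reported. In siRRM1 the call was lost in 7 of 13 settings for HLA-E 200904_at, 9 of 14 for HLA-B 209140_x_at and 0 of 14 for TAP1. In siRRM2 it was lost in 4 of 13 for HLA-E 200904_at. Leaving out 1 array left 1 to 1 member called in siRRM1 and 0 to 1 in siRRM2, 386 to 2003 of all probe sets in siRRM1 (1619 in the fit reported), 6 to 135 in siRRM2 (176) and 2 to 5 between knockdowns (5), and 1 to 9 list genes in siRRM1 (6) and 0 to 0 in siRRM2 (1). Where that leaves 1 array in a group, it is assumed to vary like the others and adds nothing to the estimate of spread. Leaving out either array of the group not compared therefore gave the same result as fitting only the groups compared. Those settings are not separate checks, here or in the paragraphs above. A floor at the 60th percentile gave 2 members called in siRRM2 and 3 probe sets between knockdowns, and 1 probe set per gene gave 13. A variance trend gave 5 members in siRRM1 and 4 in siRRM2, 347 probe sets in siRRM2, 16 between knockdowns and 3 list genes in siRRM2. Fitting only the groups compared gave 1 member, 923 probe sets and 3 list genes in siRRM1 and 0 list genes in siRRM2, and quantile normalization also gave 0. With the replicate number as a block, 3 members were called in siRRM2, 2746, 712 and 101 probe sets in siRRM1, in siRRM2 and between knockdowns, and 12 and 4 list genes. Same-numbered arrays deviated together (r = 0.352, 0.362 and 0.21), but 2 pairs per comparison do not establish a pairing. Centring on array medians turned HLA-E 200905_x_at to -0.012 in siRRM1, TAP2 204770_at to -0.011 and TAPBP 210294_at to -0.028 in siRRM2, and quantile normalization turned the last pair to -0.0038 and -0.018.

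Leaving out arrays turned the sign of these uncalled differences, given as ranges. In siRRM1 they were HLA-E 200905_x_at -0.038 to 0.10 and 217456_x_at -0.0072 to 0.12, HLA-G 211528_x_at -0.00032 to 0.15, and TAP2 204770_at -0.26 to 0.12. In siRRM2 they were TAP2 204769_s_at -0.17 to 0.0074 and 204770_at -0.092 to 0.14, B2M 201891_s_at -0.0011 to 0.21, and TAPBP 210294_at -0.19 to 0.20. Between knockdowns they were HLA-B 209140_x_at -0.024 to 0.060, HLA-C 208812_x_at -0.030 to 0.092, 214459_x_at -0.065 to 0.011 and 216526_x_at -0.048 to 0.0013, HLA-G 211529_x_at -0.16 to 0.038, B2M 216231_s_at -0.0056 to 0.11, TAP2 204770_at -0.29 to 0.089, TAPBP 210294_at -0.15 to 0.24, IFNGR2 -0.029 to 0.11 and TYK2 -0.023 to 0.13.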
